A study of Mus musculus with 22 samples.

Results

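Transcript levels of 10 genes of the unfolded protein response and the integrated stress response were examined in microglia and astrocytes sorted from aged mouse cortex. The genes were Hspa5, Hsp90b1, Herpud1, Xbp1, Atf4, Ddit3, Trib3, Chac1, Asns and Sesn2. They were chosen by name as standard readouts of both pathways, with earlier results of these data known. They were read by 11 probes, of which Atf4 had 2, among 22485 genes named on the array, and the 10 genes were measured in all 22 samples. Each gene was read from its brightest probe by mean level, and the dimmer Atf4 probe is described beside it.

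The samples came from C57BL/6 mice aged 15 to 18 months. Mice of the APP/PS1 group carried the APPswe/PS1dE9 transgenes, an Alzheimer's disease model in which a mouse prion promoter drives mutant human amyloid precursor protein and presenilin 1, and wild-type (WT) littermates carried neither. Microglia were sorted as CD11b and CD45 positive cells (7 APP/PS1 and 7 WT samples) and astrocytes as GLT1 positive, CD11b negative cells (4 APP/PS1 and 4 WT samples). Myelin and O4 positive cells had been removed from both, after mechanical and papain dissociation of the cortex with an incubation at 37 °C. Samples are given as biological replicates, and whether a sample pooled animals is not given in the sources used here. Each of 11 dual-colour arrays held the APP/PS1 and WT sample of 1 number and cell type. The comparisons ask whether amyloid pathology changes these genes in each glial type.

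The unfolded protein response starts when misfolded protein accumulates in the endoplasmic reticulum (ER). The sensors IRE1, PERK and ATF6 then raise ER chaperones and degradation factors, partly through splicing of Xbp1 mRNA by IRE1. PERK also phosphorylates the translation factor eIF2α, as do kinases that sense amino acid shortage, double-stranded RNA or haem, and this shared branch is the integrated stress response. It lowers general translation while favouring translation of ATF4, which raises genes of amino acid supply, redox balance and cell death. Much of this control is at splicing and translation, which the arrays did not measure.

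Promoter stretches are shown for the 5 genes whose windows held a known stress response motif. The 250 bases upstream of each gene's start (RefSeq, GRCm38.p6) were searched on both strands for 4 motifs, and all 10 members had a window. The ER stress response element, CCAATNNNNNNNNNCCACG, which ATF6 reads together with NF-Y, was found upstream of Hspa5 once and of Hsp90b1 at 2 places, and in 0.130% of 27025 genes. Its shorter form ERSE-II, ATTGG and CCACG with any 1 base between them, was found upstream of Herpud1 and in 0.037% of genes. The core of the C/EBP-ATF composite element that ATF4 reads, TGATGNAA, was found for Asns, Chac1 and Herpud1 and in 3.91% of genes. The core TGACGTG, read by ATF6 and XBP1, was found for Hspa5 and in 1.85% of genes. None of the 4 motifs was in the windows of Xbp1, Atf4, Ddit3, Trib3 or Sesn2, which says only that these letters are not in those bases. The stretches that hold the matches are given 5′ to 3′ on the gene's strand, with the matched motif letters in capitals. Positions count back from -1 at the base before the start.
Hspa5, chr2:34771913-34772063, plus strand, with TGACGTG at -157 to -151 and the ER stress response element at -65 to -47: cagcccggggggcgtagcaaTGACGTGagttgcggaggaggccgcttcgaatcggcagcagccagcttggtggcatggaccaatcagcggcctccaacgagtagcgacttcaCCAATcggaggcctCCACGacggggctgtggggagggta
Hsp90b1, chr10:86705513-86705676, minus strand, with the element forward at -212 to -194 and reversed at -107 to -89: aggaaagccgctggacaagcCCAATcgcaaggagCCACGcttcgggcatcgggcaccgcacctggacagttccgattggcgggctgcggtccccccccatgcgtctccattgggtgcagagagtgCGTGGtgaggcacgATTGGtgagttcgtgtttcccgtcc
Herpud1, chr8:94386297-94386407, plus strand, with the composite core reversed at -112 to -105 and ERSE-II at -52 to -42: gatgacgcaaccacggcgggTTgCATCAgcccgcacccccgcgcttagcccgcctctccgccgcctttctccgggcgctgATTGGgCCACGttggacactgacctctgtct
Chac1, chr2:119351029-119351076, plus strand, with the composite core reversed at -193 to -186: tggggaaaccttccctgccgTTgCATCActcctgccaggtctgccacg
Asns, chr6:7693210-7693252, minus strand, with the composite core forward at -23 to -16: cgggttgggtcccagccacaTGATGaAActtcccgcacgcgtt

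**Figure D1:**
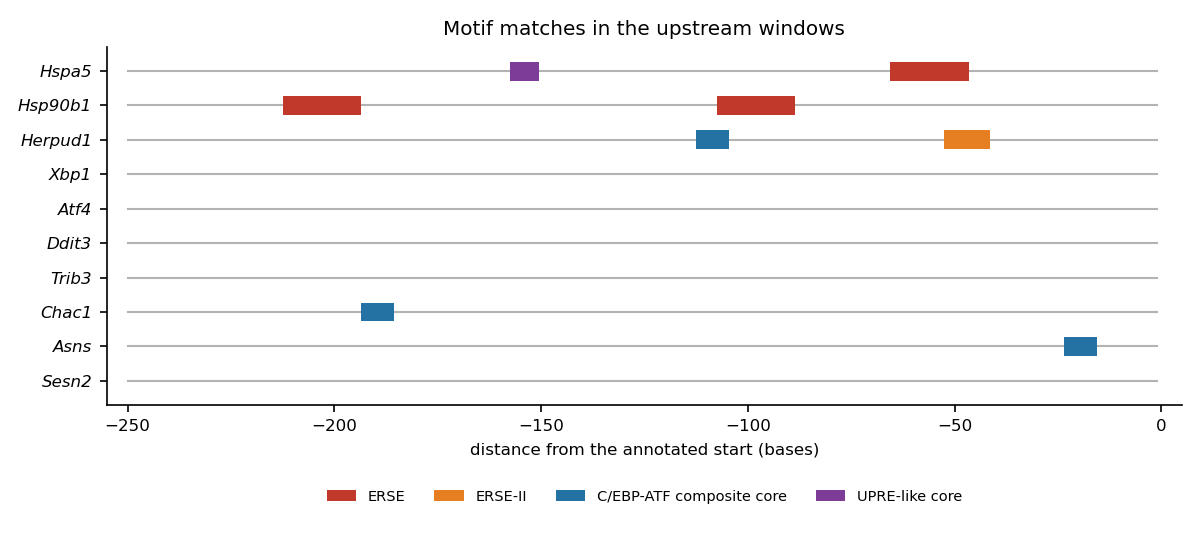
Positions of the 4 motifs in the 250 bases upstream of each gene's annotated start; the horizontal axis is distance from the start in bases and coloured blocks are matches on either strand. Hspa5, Hsp90b1, Herpud1, Chac1 and Asns hold at least 1 match, and the other 5 genes hold none.

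Values are the deposited single-channel log2 values, so a difference of 1 is a 2-fold change. Per-sample medians lay between 6.24 and 6.26, and the highest value of the table was 17.89, above every value of the 10 genes. Genotype differences are APP/PS1 minus WT from 1 limma model of all samples with array and dye as terms, given with the standard error (SE). P-values were adjusted by Benjamini-Hochberg over all genes tested, with a threshold of 0.05. The sorted populations carried their own markers. The mean level of 13 microglia markers was 14.82 to 15.35 in WT and 14.57 to 14.80 in APP/PS1 microglia samples, so the genotypes did not overlap, and that of 11 astrocyte markers was 15.25 to 15.47 in WT astrocyte samples. APP/PS1 astrocyte samples stood apart as well: their mean astrocyte marker level was 13.03 to 14.91 and their mean microglia marker level was 8.64 to 10.75, against 7.00 to 8.34 in WT. Since these are bulk samples, fewer cells of a type and less RNA per cell cannot be told apart.

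In microglia, 2 of the 10 genes rose in APP/PS1 samples, Trib3 by 9.50-fold and Chac1 by 1.91-fold, and Atf4 fell at the margin of the threshold. Over all 22395 genes tested in microglia, 19.7% passed, 8.27% upward and 11.4% downward. In astrocytes, 3 of the 10 rose, Asns by 2.94-fold, Trib3 by 2.05-fold and Chac1 by 1.62-fold, and Sesn2 fell by 1.61-fold. The background there was 33.4% of 22474 genes, 15.4% upward and 18.0% downward. The share of members that passed was therefore not far from the background in either cell type, and the median difference over the 10 was -0.04 in microglia and -0.08 in astrocytes, against -0.04 and -0.07 over all genes. The 4 genes that passed in astrocytes are known as targets of ATF4, but Sesn2 fell while the other 3 rose. The chaperone genes Hspa5 and Hsp90b1 and the transcription factors Xbp1 and Ddit3 did not pass in either cell type. Nor did the degradation factor Herpud1, whose window held the core that ATF4 reads.

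**Figure D2:**
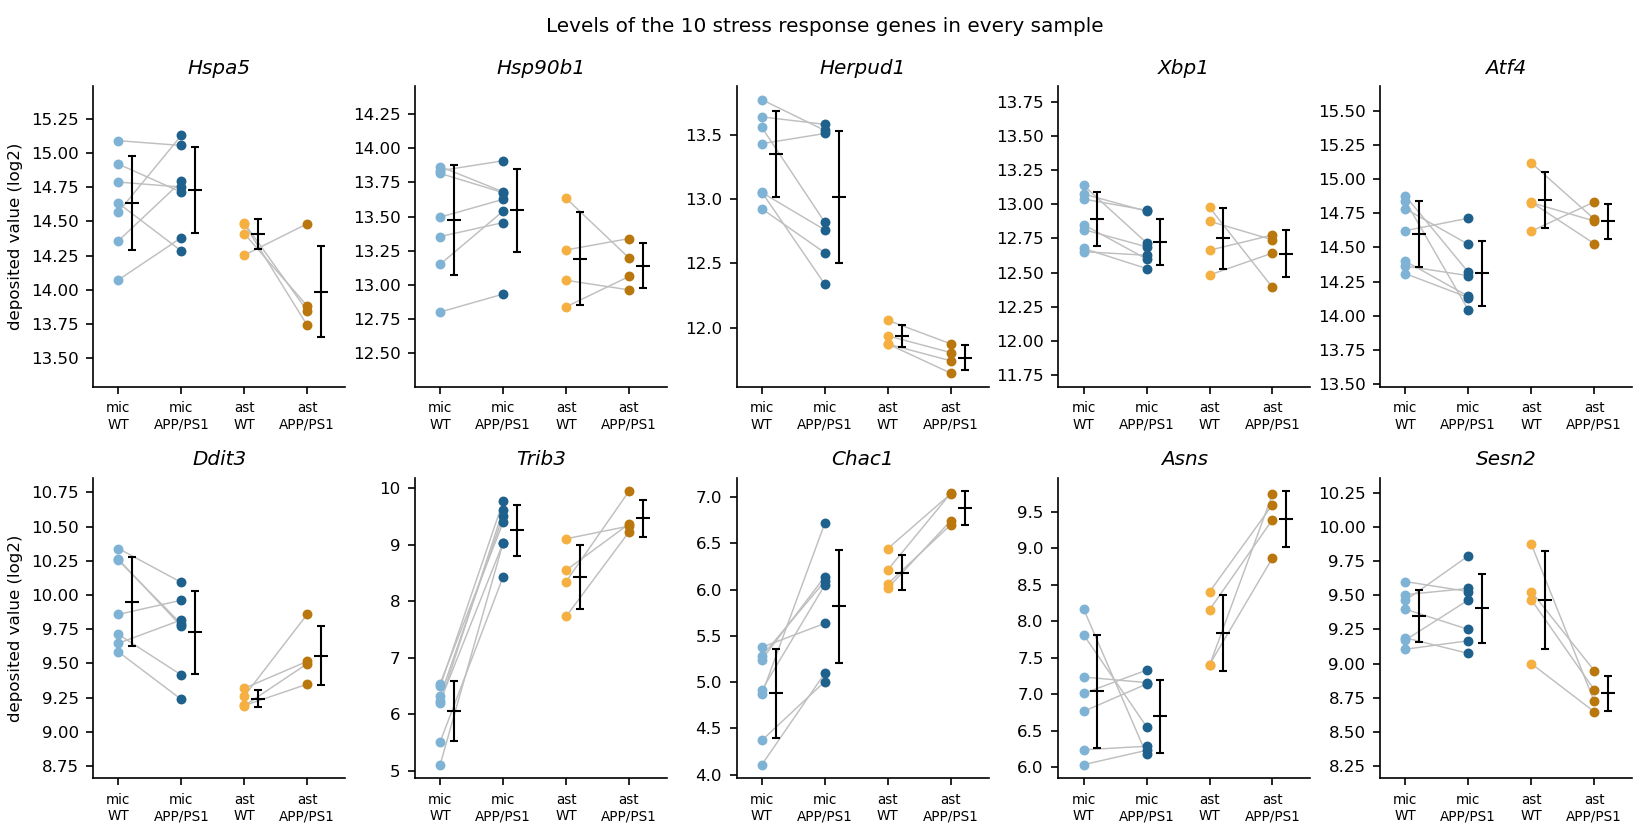
Deposited log2 value of each gene in the 22 samples, in WT and APP/PS1 microglia (mic, 7 and 7) and WT and APP/PS1 astrocytes (ast, 4 and 4); points are samples, grey lines join the 2 samples of an array, and black bars are mean and SD. Vertical axes differ in position between panels. Trib3 separates the genotypes in both cell types, and Asns, Chac1, Ddit3 and Sesn2 separate them in astrocytes but overlap in microglia. The share of all genes that separate in this way was not counted.

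Trib3 encodes a pseudokinase that ATF4 and CHOP induce and that binds AKT (chr2:152337425-152344060 in GRCm38.p6). Its log2 value in WT microglia was 5.11 at the lowest, 6.23 at the median and 6.54 at the highest, and in APP/PS1 microglia 8.43, 9.39 and 9.76. The lowest APP/PS1 sample lay above the highest WT sample, and the within-array difference was positive on 7 of 7 arrays, from 2.80 to 3.92. The fitted difference was 3.25 ± 0.11 (SE; 95% confidence interval 3.01 to 3.48; limma adjusted p = 2.78e-07), and it was 3.23 among the 4 arrays of slide 1 and 3.28 among the 3 of slide 2. In astrocytes the 4 WT samples read 9.10, 8.55, 7.73 and 8.35 in replicate order, and the APP/PS1 samples read 9.33, 9.37, 9.23 and 9.95. The groups did not overlap, but the array differences were uneven, at 0.23, 0.82, 1.50 and 1.60. The astrocyte difference was 1.03 ± 0.14 (limma adjusted p = 5.22e-04). It was smaller than in microglia, by -2.21 ± 0.17 for the astrocyte effect minus the microglia effect (limma adjusted p = 6.29e-05). WT astrocytes read above WT microglia by 2.40 (limma adjusted p = 4.74e-05), and APP/PS1 microglia and APP/PS1 astrocytes read similar means, 9.25 ± 0.46 (SD, n = 7) and 9.47 ± 0.33 (SD, n = 4). The cell types lay on different slides, so a slide effect on these levels cannot be told apart from cell type. With slide as a random block, the Trib3 difference between cell types over both genotypes was 1.26 and missed the threshold (limma adjusted p = 0.0814).

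Chac1 encodes a glutathione-cleaving enzyme induced by ATF4 (chr2:119351242-119354326). In WT microglia its value was 4.11, 4.92 and 5.38 at the lowest, median and highest, and in APP/PS1 microglia 5.01, 6.05 and 6.72. The groups overlapped, but APP/PS1 was the higher sample on 7 of 7 arrays, by 0.26 to 1.85. The fitted difference was 0.93 ± 0.15 (limma adjusted p = 0.00227), and it was 0.67 within slide 1 and 1.28 within slide 2. The WT astrocyte samples read 6.02, 6.06, 6.21 and 6.44 and the APP/PS1 samples 6.74, 6.70, 7.04 and 7.04. These groups did not overlap, and the 4 array differences were even, from 0.59 to 0.83. The astrocyte difference of 0.70 ± 0.20 (limma adjusted p = 0.0239) missed the threshold without astrocyte replicate 1, 2, 3 or 4, at adjusted p of 0.0711, 0.0636, 0.087 and 0.0609, and without the array block at 0.202. In the same microglia samples 5 of 13 microglia markers fell and 1 rose, with a list median of -0.36 that was below 0 on 7 of 7 arrays (-0.63 to -0.19). Csf1r and Cx3cr1, the brightest, fell by 1.34 and 1.25, and the part of this shift in the Trib3 and Chac1 differences was not tested. The Chac1 effects in the 2 cell types differed by -0.24 with a 95% interval of -0.81 to 0.33 (limma adjusted p = 0.544).

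Asns encodes asparagine synthetase, a target of ATF4 in amino acid shortage (chr6:7675165-7693209). In astrocytes the WT samples read 8.16, 7.40, 7.41 and 8.40, and the APP/PS1 samples read 9.39, 9.74, 8.87 and 9.60. Every APP/PS1 astrocyte sample lay above every WT one and above the highest of the 14 microglia samples. The array differences were 1.23, 2.34, 1.46 and 1.19, and the fitted difference was 1.56 ± 0.39 (limma adjusted p = 0.0123). Without astrocyte replicate 2, which had the largest gap, it was 1.28 with an adjusted p of 0.0724. In microglia the WT samples ranged from 6.04 through a median of 7.01 to 8.17, and the APP/PS1 samples from 6.18 through 6.56 to 7.33. The groups overlapped, with 4 of 7 arrays higher and 3 lower in APP/PS1, and the lowest difference was -1.99 in replicate 3. The microglia difference was -0.35 ± 0.30 (limma adjusted p = 0.481), at -0.75 within slide 1 and 0.18 within slide 2. The effect in astrocytes exceeded that in microglia by 1.91 ± 0.49 (limma adjusted p = 0.0178; 0.0714 without astrocyte replicate 2).

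Sesn2 encodes sestrin 2, a leucine sensor and brake on mTORC1 that ATF4 and p53 can induce (chr4:132492804-132510456). In astrocytes the WT samples read 9.47, 9.87, 9.53 and 9.0, and the APP/PS1 samples read 8.81, 8.72, 8.95 and 8.65. Each APP/PS1 sample lay below every WT sample and below the lowest of the 14 microglia samples, and the array differences were -0.66, -1.15, -0.58 and -0.35. The fitted difference was -0.69 ± 0.11 (limma adjusted p = 0.00147; 0.0561 when astrocytes were fitted alone). In microglia the values were 9.10, 9.40 and 9.60 at the lowest, median and highest in WT and 9.08, 9.47 and 9.79 in APP/PS1, and the difference was 0.07 ± 0.09 (limma adjusted p = 0.622). The astrocyte effect was lower than the microglia effect by -0.76 ± 0.14 (limma adjusted p = 0.00391; 0.0556 without the array block). Sesn2 thus moved against Trib3, Chac1 and Asns in the same astrocyte samples.

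**Figure D3:**
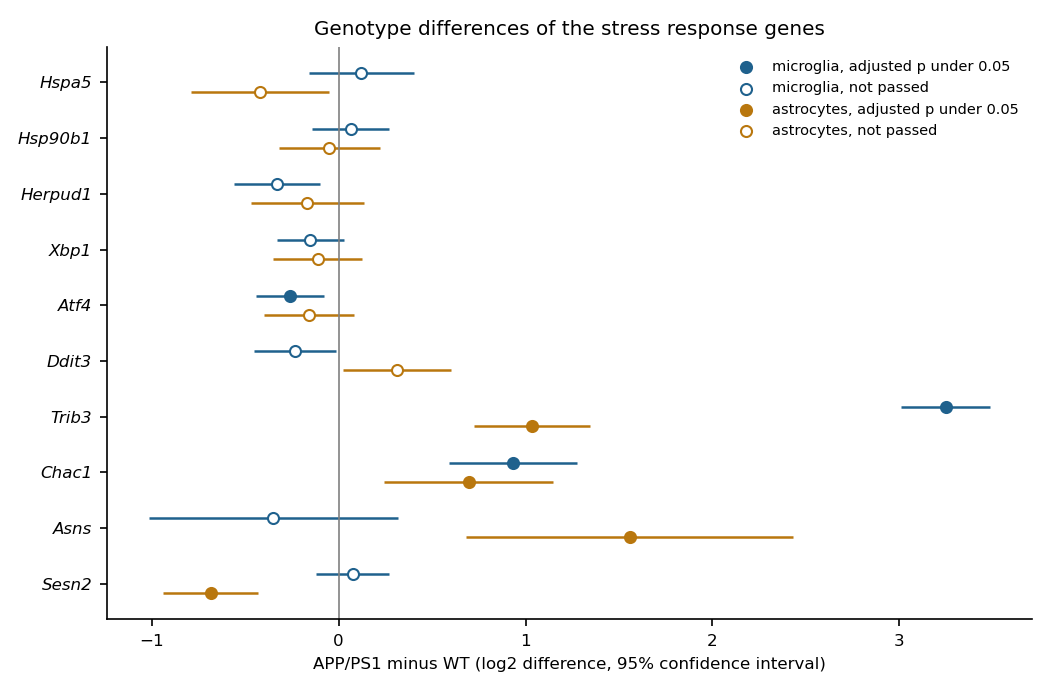
Fitted APP/PS1 minus WT difference (log2) of each gene in microglia (blue) and astrocytes (ochre) with its 95% confidence interval; filled circles passed an adjusted p of 0.05. Trib3 in microglia, at 3.25, lies apart from the rest, and Asns and Sesn2 have differences in astrocytes whose microglia intervals include 0.

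The astrocyte differences coincided with changes in marker lists on the same arrays. Of 11 astrocyte markers 11 fell, with a median of -1.36, and array medians were -2.18, -1.56, -0.35 and -1.55 for replicates 1 to 4. Of 13 microglia markers 11 rose and 1 fell, with a median of 2.04 and array medians of 3.38, 1.86, 1.79 and 0.72. The brightest, Csf1r and Cx3cr1, rose by 1.61 and 2.04. The falling one was Itgam, which encodes CD11b, at -0.59. Its probe hardly separated the cell types, with means of 13.50 in WT astrocytes and 13.95 in WT microglia. Endothelial markers rose in 8 of 9 cases (median 1.10; 4 of 9 without replicate 2 or 4), with array medians of 0.24, 1.47, 0.92 and 1.89. Mural markers, of pericytes and smooth muscle, rose in 6 of 8 (median 2.01), with array medians of 1.76, 3.49, 2.38 and 0.78. With astrocytes fitted alone, 0 of 9 endothelial and 4 of 8 mural markers passed, and without the array block 2 of 9 and 5 of 8. Among the stress genes, the Trib3 difference was lowest on replicate 1 and highest on replicate 4. Asns was lowest on replicate 4 and highest on replicate 2. Chac1 was lowest on replicate 4 and highest on replicate 3, and Sesn2 was lowest on replicate 2 and highest on replicate 4. The order of these genes over 4 arrays was not tested against that of the lists. Immediate early genes, which cell dissociation can raise, rose in 13 of 14 cases with a median of 1.35, against 5 that rose and 3 that fell of 14 in microglia (2 rose without replicate 1, 2, 3, 4 or 6). Averaged over the genotypes, 14 of these 14 genes read lower in astrocytes than in microglia (median -2.82). The part of dissociation or of microglial RNA in their rise was not tested. The part of the marker and immediate early shifts in the Trib3, Chac1, Asns and Sesn2 differences was not tested either. The level of Asns in all microglia samples lay below that in every APP/PS1 astrocyte sample, and the level of Sesn2 in all microglia samples lay above it. For Trib3 and Chac1, APP/PS1 microglia (8.43 to 9.76 and 5.01 to 6.72) overlapped APP/PS1 astrocytes (9.23 to 9.95 and 6.70 to 7.04). Whether RNA of microglia or vascular cells, or less astrocyte RNA, had a part in any of the 4 differences was not tested. In microglia samples 7 of 11 astrocyte markers fell (median -0.82; 4, 3 and 4 fell without replicate 2, 4 or 6), and their mean level was 6.77 to 8.52. Among perivascular macrophage and monocyte markers 5 of 8 fell (median -1.07).

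**Figure D4:**
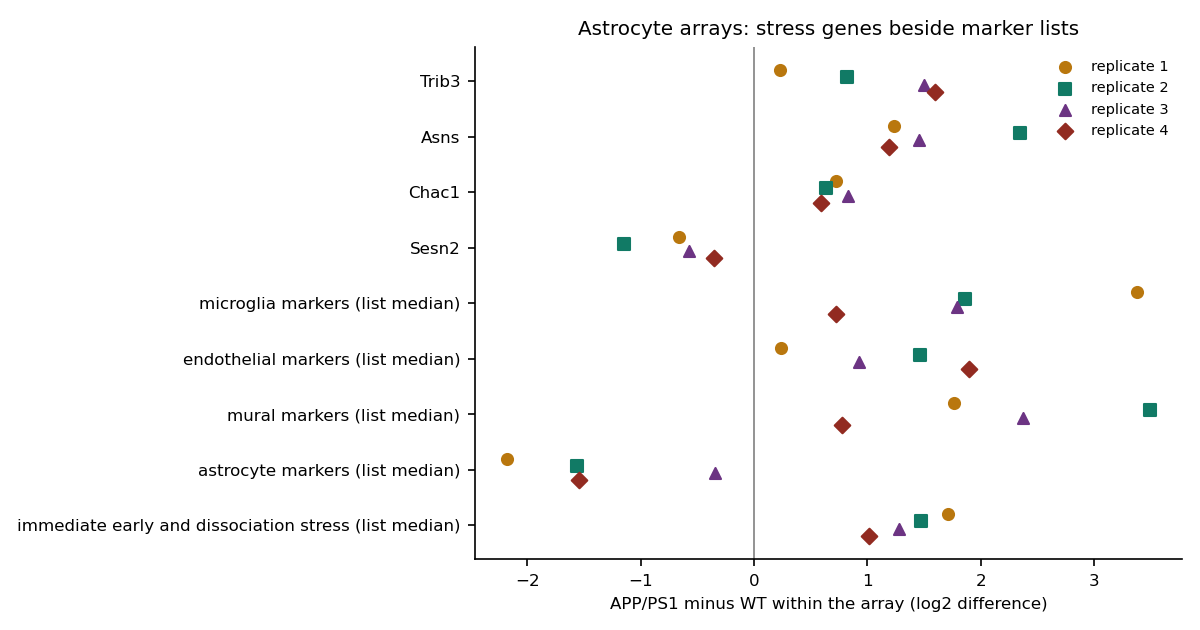
APP/PS1 minus WT difference (log2) within each of the 4 astrocyte arrays, for 4 stress genes and for the medians of 5 gene lists; each symbol is 1 replicate. Trib3, Asns, Chac1 and the microglia, vascular and immediate early lists lie above 0 on 4 of 4 arrays, and Sesn2 and the astrocyte list lie below.

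Among the transcription factors, Atf4 is the central effector of the integrated stress response, regulated mainly through its translation (chr15:80255184-80257545). Its brighter probe read 14.31, 14.62 and 14.88 at the lowest, median and highest in WT microglia and 14.04, 14.29 and 14.71 in APP/PS1 microglia. The groups overlapped widely and APP/PS1 was lower on 6 of 7 arrays. The difference of -0.26 ± 0.08 (limma adjusted p = 0.0497) lay at the threshold and was lost in 8 of 13 alternative settings and in 9 of 11 fits that left out an array. The dimmer probe gave -0.04 ± 0.07 (limma adjusted p = 0.748), so the 2 probes did not both show a fall. In astrocytes the brighter probe read 15.12, 14.83, 14.62 and 14.83 in WT and 14.71, 14.53, 14.83 and 14.69 in APP/PS1, a difference of -0.16 ± 0.11 (limma adjusted p = 0.297). The dimmer one gave 0.26 ± 0.09 (limma adjusted p = 0.053), in the opposite direction.

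Ddit3 encodes CHOP, a transcription factor of the death-promoting phase of ER stress (chr10:127290793-127296291). In WT astrocytes it read 9.26, 9.19, 9.19 and 9.32 and in APP/PS1 astrocytes 9.86, 9.50, 9.35 and 9.51. The groups did not overlap and the difference was positive on 4 of 4 arrays, but at 0.31 ± 0.13 it missed the threshold (limma adjusted p = 0.0904). In microglia it read 9.58, 9.86 and 10.34 at the lowest, median and highest in WT and 9.24, 9.79 and 10.09 in APP/PS1, lower on 5 of 7 arrays, with a difference of -0.23 ± 0.10 (limma adjusted p = 0.139). Within slides this was -0.40 on slide 1 and -0.0025 on slide 2. The effects of the 2 cell types differed by 0.55 ± 0.16 (limma adjusted p = 0.0326), a call lost in 8 of 11 fits without 1 array, where adjusted p reached 0.111, and without the array block at 0.266.

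Xbp1 encodes the transcription factor whose mRNA IRE1 splices, and the values do not separate spliced from unspliced mRNA (chr11:5520641-5525993). In microglia it read 12.65, 12.85 and 13.14 at the lowest, median and highest in WT and 12.53, 12.69 and 12.96 in APP/PS1. The groups overlapped, yet APP/PS1 was lower on 7 of 7 arrays, by 0.03 to 0.42 in size, and the difference was -0.15 ± 0.08 (limma adjusted p = 0.241). Astrocyte WT samples read 12.98, 12.88, 12.48 and 12.66 and the APP/PS1 samples 12.39, 12.74, 12.64 and 12.78, higher on 2 arrays and lower on 2, with a difference of -0.11 ± 0.11 (limma adjusted p = 0.464).

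Of the ER chaperones, Hspa5 encodes BiP, the HSP70 of the ER that also holds the stress sensors inactive (chr2:34772090-34776529). In microglia it read 14.07, 14.63 and 15.09 at the lowest, median and highest in WT and 14.28, 14.75 and 15.13 in APP/PS1, and the groups overlapped almost wholly. The difference was 0.12 ± 0.13 with a 95% interval of -0.16 to 0.40 (limma adjusted p = 0.571). In astrocytes the WT samples read 14.41, 14.48, 14.25 and 14.49 and the APP/PS1 samples 13.88, 13.74, 14.48 and 13.85. APP/PS1 was lower on 3 of 4 arrays and higher in replicate 3 by 0.23. The difference was -0.42 ± 0.17 (limma adjusted p = 0.0796), and without replicate 3 it was -0.60 and passed at 0.0264. It also passed in 3 of 11 alternative settings. Adjusted p ranged from 0.0264 to 0.308 over the fits without 1 array.

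Hsp90b1 encodes GRP94, the HSP90 of the ER (chr10:86690841-86705444). It read 12.80, 13.50 and 13.87 in WT microglia and 12.93, 13.63 and 13.91 in APP/PS1 microglia at the lowest, median and highest, a difference of 0.06 ± 0.09 with a 95% interval of -0.14 to 0.27 (limma adjusted p = 0.698). Astrocyte WT samples read 13.03, 13.26, 12.84 and 13.63 and the APP/PS1 samples 12.96, 13.34, 13.06 and 13.20, a difference of -0.05 ± 0.12 (limma adjusted p = 0.79). In both cell types the groups overlapped and the arrays were divided in sign.

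Herpud1 encodes an ER membrane protein of ER-associated degradation (chr8:94386429-94395371). In microglia it read 12.93, 13.43 and 13.77 at the lowest, median and highest in WT and 12.34, 12.82 and 13.58 in APP/PS1, lower on 6 of 7 arrays. The difference of -0.33 ± 0.10 lay just outside the threshold (limma adjusted p = 0.0502) and passed in 7 of 13 alternative settings and in 2 of 11 fits without 1 array. It was -0.52 within slide 1 and -0.05 within slide 2. In astrocytes the WT samples read 12.06, 11.87, 11.87 and 11.94 and the APP/PS1 samples 11.87, 11.65, 11.74 and 11.81. APP/PS1 was lower on 4 of 4 arrays by a small amount, -0.17 ± 0.13 (limma adjusted p = 0.388).

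The genotype effects in the 2 cell types were thus tested against each other for all 10 genes. The difference passed for Trib3, Asns, Ddit3 and Sesn2, 2 in each direction, where 26.6% of 22392 genes passed (13.4% positive and 13.2% negative, as astrocyte effect minus microglia effect). It did not pass for the others. Their values were -0.54 for Hspa5 (limma adjusted p = 0.0839, passing in 3 of 10 alternative settings), -0.11 for Hsp90b1 (0.631), -0.24 for Chac1 (0.544), 0.04 for Xbp1 (0.864) and 0.16 for Herpud1 (0.537). Atf4 gave 0.10 (0.628) on its brighter probe and 0.30 (0.0824) on its dimmer one.

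Levels of each gene were then compared between astrocytes and microglia, averaged over the genotypes. Trib3 was higher in astrocytes by 1.29 ± 0.23 (limma adjusted p = 5.41e-05), Asns by 1.75 ± 0.42 (0.00116) and Chac1 by 1.18 ± 0.27 (6.86e-04). Herpud1 was lower in astrocytes by -1.33 ± 0.20 (7.00e-06), and its highest astrocyte sample, at 12.06, lay below its lowest microglia sample, at 12.34. Hspa5 and Ddit3 were lower at -0.48 ± 0.19 (0.0393) and -0.44 (0.0306), calls lost in 4 and 1 of 9 alternative settings and in 7 and 6 of 11 fits without 1 array. Atf4 was higher by 0.32 (0.0496) on its brighter probe but lower by -1.17 ± 0.16 (3.17e-06) on its dimmer one, so its direction is unsettled. Differences that missed the threshold were -0.34 for Hsp90b1 (0.117), -0.11 for Xbp1 (0.484) and -0.25 for Sesn2 (0.163). That made 4 of 10 higher and 3 lower, where 55.8% of 22395 genes differed, 36.9% higher and 18.8% lower in astrocytes, and the median of all genes was 0.34. In WT samples alone, Trib3, Chac1 and Herpud1 kept their calls at 2.40, 1.30 and -1.41, and Ddit3 at -0.70 (0.0104), while Asns, at 0.81, did not (0.132). All astrocyte arrays lay on slide 3 and all microglia arrays on slides 1 and 2, so a slide effect cannot be told apart from cell type here. With slide as a random block Herpud1 alone passed of the 10, at -1.38 (0.00213).

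Ordering the group means of a gene from low to high, Trib3 ran from WT microglia (6.06 ± 0.54, SD) through WT astrocytes (8.43 ± 0.57) to APP/PS1 microglia (9.25 ± 0.46) and APP/PS1 astrocytes (9.47 ± 0.33) (n = 7 for microglia and 4 for astrocytes). WT astrocytes and APP/PS1 microglia overlapped, as did APP/PS1 microglia and APP/PS1 astrocytes. For Asns the order was APP/PS1 microglia (6.70 ± 0.50), WT microglia (7.04 ± 0.78), WT astrocytes (7.84 ± 0.52) and APP/PS1 astrocytes (9.40 ± 0.38), and neighbours among the first 3 overlapped. For Chac1 it was WT microglia (4.88 ± 0.48), APP/PS1 microglia (5.82 ± 0.61), WT astrocytes (6.18 ± 0.19) and APP/PS1 astrocytes (6.88 ± 0.18), and neighbours among the first 3 overlapped. For Sesn2, APP/PS1 astrocytes (8.78 ± 0.13) stood below WT microglia (9.35 ± 0.19), APP/PS1 microglia (9.40 ± 0.25) and WT astrocytes (9.47 ± 0.36), which overlapped.

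The other genes of the pathways were taken from lists that exclude the 10. Their counts are to be read against the shares over all genes. These were 8.27% upward and 11.4% downward in microglia, and 15.4% upward and 18.0% downward in astrocytes. Among 19 other ER chaperones and folding enzymes, 5 rose and 0 fell in microglia by limma (median 0.03; 3 fell at an unadjusted p under 0.05), and 1 rose and 6 fell in astrocytes (median -0.16). Ero1a, an oxidase that drives disulphide formation, rose by 3.63 ± 0.24 in microglia (limma adjusted p = 9.41e-06), from a mean of 5.23 to 8.83. In astrocytes its difference was 0.14 (0.78). Sil1, the exchange factor of BiP, rose by 0.56 in microglia (4.71e-04) and fell by 0.86 in astrocytes (2.18e-04). Its effects differed by -1.41 ± 0.12 (limma adjusted p = 6.84e-05). Sdf2l1, a BiP cofactor, and Ero1b rose in microglia by 0.84 and 0.29. In astrocytes Dnajb9 and Ppib fell by 0.59 and 0.31, and Cryab, a small heat shock protein, rose by 0.65. The microglia count was 3 without replicate 4 or 7, and the astrocyte count of falls was 2 without replicate 1, 3 without replicate 2 and 1 with astrocytes fitted alone.

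Among 14 ER-associated degradation genes, 1 rose and 1 fell in microglia (median -0.12), and 0 rose and 8 fell in astrocytes by limma (median -0.27; 1 rose at an unadjusted p under 0.05). The astrocyte falls included Selenos at -0.75, Derl1 at -0.66, Derl2 at -0.56 and Os9 at -0.53, which serve recognition and export of misfolded protein, and 5 fell without replicate 2 or 4. With astrocytes fitted alone the limma count was 0, with 6 of 14 lower at an unadjusted p under 0.05. In microglia Os9 rose by 0.24, a call lost in 2 of 11 fits without 1 array, and Edem1 fell by 0.29, a call lost in 8 of 11. Of 16 genes of ER translocation and export, 2 rose and 1 fell in microglia and 4 rose and 3 fell in astrocytes, not far from the shares over all genes. Sec24d and Sec31a, of the COPII export coat, rose in astrocytes by 1.19 and 0.55, and Sec61a1, of the translocation channel, fell by 0.49. Of 10 stress sensors and eIF2 components, 1 rose in microglia, the double-stranded RNA kinase Eif2ak2 (0.49), not far from the share over all genes. In astrocytes the 4 that passed rose, Eif2ak2 (0.63), Eif2b5 (0.59), Atf6 (0.40) and its activating protease Mbtps1 (0.33), and with astrocytes fitted alone the limma count was 0, with 4 higher at an unadjusted p under 0.05. The PERK gene Eif2ak3 had a microglia difference of -0.28 (limma adjusted p = 0.0634).

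Of the integrated stress response regulators, 3 rose and 2 fell of 15 tested in microglia (median 0.00) and 8 rose and 2 fell of 16 in astrocytes (median 0.34; 4 rose with astrocytes fitted alone). In astrocytes the transcription factors Cebpb, Atf3 and Atf5 rose by 2.15 ± 0.32, 1.81 ± 0.20 and 1.77 ± 0.24. Immediate early genes and microglia markers rose in the same astrocyte samples, by medians of 1.35 and 2.04. The part of these shifts in the Cebpb, Atf3 and Atf5 differences was not tested. In microglia Ddit4, an mTORC1 inhibitor, rose by 1.37 ± 0.23 and Atf5 by 0.68, the Atf5 call being lost in 6 of 11 fits without 1 array. Tsc22d3, a glucocorticoid-induced gene, fell in both, by 0.97 and 1.45. Amino acid synthesis and transport genes split, with 5 up and 2 down of 20 in microglia and 8 up and 9 down in astrocytes. Psat1, of serine synthesis, rose by 1.87 ± 0.18 in microglia (limma adjusted p = 9.51e-05) and had a difference of -1.48 in astrocytes (0.00113), and its effects differed by -3.35 ± 0.29 (8.89e-05). Slc7a11, the cystine transporter, likewise rose by 1.35 in microglia and fell by 0.95 in astrocytes. Phgdh, the first enzyme of serine synthesis, and Cbs fell by 1.45 and 1.43 in astrocytes. Their WT means were 15.28 and 15.33 there, against 12.06 and 7.66 in WT microglia. The astrocyte markers fell by a median of 1.36 in the same samples. The part of that fall in the astrocyte differences of Psat1, Slc7a11, Phgdh and Cbs was not tested. Aldh1l2, of mitochondrial folate metabolism, rose in both, by 0.62 and 1.55. Among 12 tRNA synthetases, 2 rose and 5 fell in microglia. In astrocytes 2 rose and 1 fell, which is no more than the shares over all genes would lead to in so short a list. Aars fell by 0.40 in microglia and Gars rose by 0.59 in astrocytes. The 5 falls in microglia were 2 or 3 without any 1 of the 7 microglia arrays.

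Of 9 stress-linked cell death genes, 1 rose and 1 fell in microglia and 6 rose and 1 fell in astrocytes (median 0.67; 2 rose with astrocytes fitted alone). In astrocytes the inflammatory caspases Casp4 and Casp12 rose by 1.32 and 1.06 and Bbc3, which encodes PUMA, by 0.67, while Traf2 fell by 0.54. Casp4 had a mean of 6.88 in WT astrocytes and 11.96 in WT microglia, and microglia markers rose in the same APP/PS1 astrocyte samples by a median of 2.04; their part in the Casp4 difference was not tested. In microglia Pmaip1, which encodes NOXA, rose by 0.63. Of 9 sestrin and amino acid sensing genes, 4 fell in microglia and the rest did not pass, with Sesn1 at -0.64 ± 0.07 (limma adjusted p = 1.89e-04) and Mios at -0.36. In astrocytes 3 fell. Without replicate 1, 2 or 4 the limma count was 0, with 4, 1 and 3 falls at an unadjusted p under 0.05. Of 10 cytosolic heat shock genes, 3 fell in microglia, with Hspa1a at -0.91 and Hsp90aa1 at -0.55, calls lost in 8 and 3 of 11 fits without 1 array. Without replicate 4 or 7 the limma count was 0, with 5 falls at an unadjusted p under 0.05, and without replicate 1, 5 or 6 it was 1. In astrocytes Hspa1a, Hspb1 and Hsp90aa1 rose by 1.64, 0.90 and 0.61 and 2 of the 10 fell. The Hsp90aa1 call was lost in 3 of 11 fits without 1 array, where limma adjusted p reached 0.125. Without astrocyte replicate 2 or 4 the count of falls was 0, with 2 and 1 falls at an unadjusted p under 0.05. With astrocytes fitted alone 1 rose and 0 fell, with 3 higher and 1 lower at an unadjusted p under 0.05. The difference of effects was 2.55 ± 0.47 for Hspa1a (limma adjusted p = 0.00327). Immediate early genes rose in the same astrocyte samples, with Fos at 2.21 and Fosb at 1.47, as did microglia markers. The part of dissociation or of microglial RNA in the heat shock values was not tested.

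**Figure D5:**
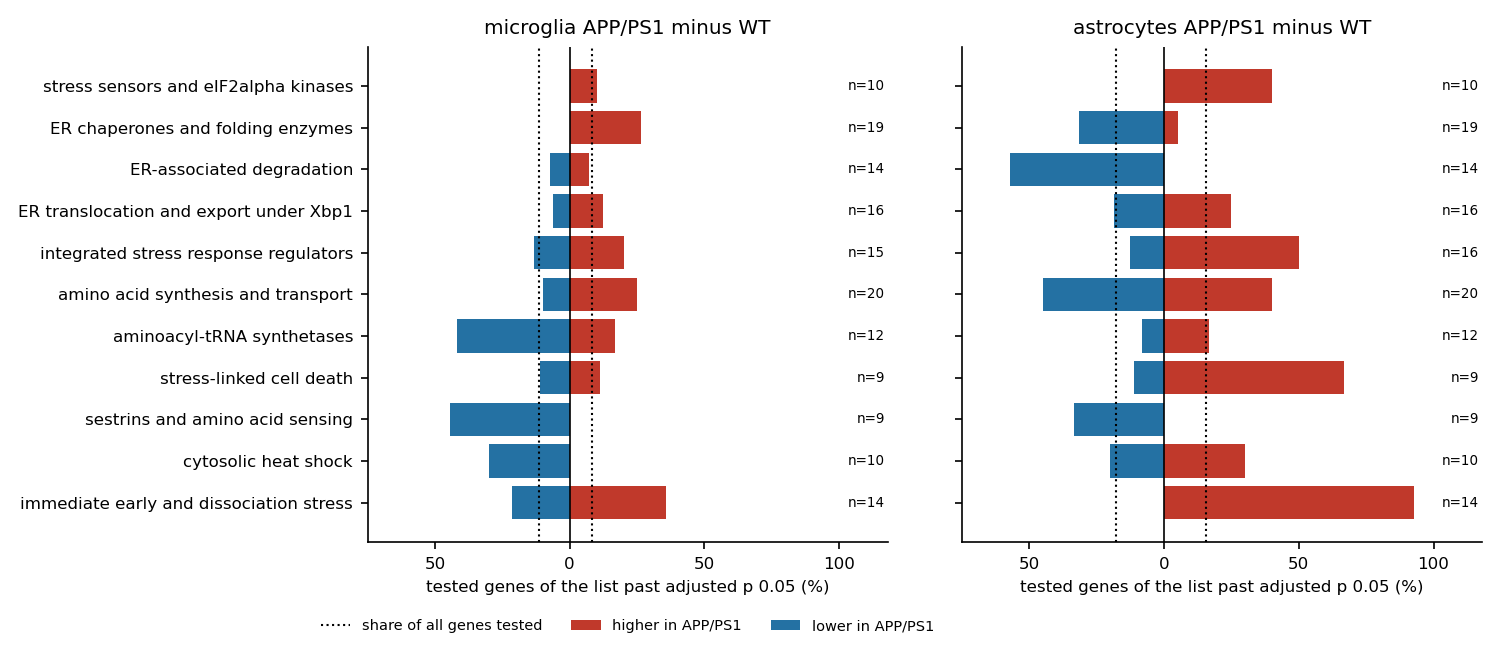
Share of the tested genes of each pathway list that passed an adjusted p of 0.05, upward (red) and downward (blue), in microglia (left) and astrocytes (right); dotted lines are the shares over all genes tested and n is the number of genes tested. In astrocytes 8 of 14 ER-associated degradation genes were lower and 8 of 16 integrated stress response regulators were higher, counts that were 0 and 4 with astrocytes fitted alone.

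The genes whose 11 within-array differences were closest to those of Trib3, by root mean square difference over 16310 genes measured on all arrays, were Tmem178 (0.54), Cd5 (0.54) and Rgs16 (0.55). Their mean differences in microglia were 3.44, 2.82 and 3.59 and in astrocytes 0.62, 1.07 and 0.90. For Hspa5 they were Plekhf2, C1qtnf5 and Stk36, at 0.21 each. For Xbp1 they were Golph3l (0.11), Smu1 (0.13) and 4933434E20Rik (0.13). The measure is a description of likeness over 11 arrays.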

How the data were processed

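The authors deposited 1 table of single-channel log2 values for 43020 probes and 22 samples, from dual-colour arrays on 3 slides. Per the submitters' processing notes limma was used, with no version, and their background correction and scaling are not stated in the labels or headers. Columns had near identical distributions, so a shift of all genes could not be seen. Probes naming 1 gene (33026) were used, and 9994 unnamed probes were not. Genotype effects were fitted in R 4.3.3 with limma 3.58.1 (statmod 1.5.0) in 1 model of 22 samples whose terms were array (fixed), dye and genotype within cell type. Cell types were compared with array as a random block (duplicateCorrelation). Tests were two-sided, and the code was tested on simulated data. APP/PS1 was in Cy3 on 4 of 7 microglia and 2 of 4 astrocyte arrays. The labels give the array pairing. Same-array samples correlated at a median r of 0.47 in microglia and 0.23 in astrocytes, as deviations from group means. The number of arrays limits the precision. Named genes were the 10 members, up to 4 genes per pathway list with the smallest adjusted p in each genotype comparison, the 2 brightest markers of a list and the 3 genes most like Hspa5, Xbp1 and Trib3. Itgam was named beyond this rule, after its values were seen. The members and lists were chosen with earlier results of these data known. Alternatives covered the block, dye, normalization, low values, probes, slides and arrays left out. Marker lists of neurons, oligodendrocytes, their precursors and lymphocytes gave 1, 2, 1 and 1 rises and 2, 2, 2 and 1 falls in astrocytes, and 0, 2, 1 and 0 rises and 6, 0, 0 and 0 falls in microglia.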

Additional observations from a re-analysis of the deposited data

Results flagged for a closer look

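The genotype effect of 4 of the 10 genes differed between astrocytes and microglia by the test of the difference itself, where 26.6% of 22392 genes passed. As astrocyte effect minus microglia effect on the log2 scale, the values were -2.21 for Trib3, which rose in both cell types and more in microglia, 1.91 for Asns, which rose in astrocytes, 0.55 for Ddit3, which passed in neither cell type alone, and -0.76 for Sesn2, which fell in astrocytes. The Ddit3 call was lost in 8 of 11 fits without 1 array and the Asns call without astrocyte replicate 2. In the same APP/PS1 astrocyte samples, microglia, vascular and immediate early genes rose and astrocyte markers fell, with values in the report. Of the vascular genes, 0 of 9 endothelial markers passed with astrocytes fitted alone. Microglia markers fell in the APP/PS1 microglia samples. The part of these shifts in the 4 differences was not tested.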

How the results depend on the processing

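Without the array block, 1184 genes passed in microglia, 2447 in astrocytes and 1491 for the contrast of effects, where Trib3 and Asns were the 2 members that passed. Pathway list counts fell too, such as ER-associated degradation in astrocytes (3 of 14 lower) and integrated stress response regulators (4 of 16 higher). Fitted alone, astrocytes gave 2819 genes, and the report gives the counts of some lists in that fit. Rises were 7 of 13 for microglia markers and 10 of 14 for immediate early genes, and 8 of 11 astrocyte markers fell. Amino acid genes gave 6 rises and 4 falls of 20, and ER translocation and export genes 2 and 0 of 16. The tRNA synthetase list gave 0 calls, with 2 higher and 1 lower at an unadjusted p under 0.05. The sestrin list gave 0 by either measure. Within microglia slides 1425 genes (slide 1) and 584 (slide 2) passed. Between cell types, slide as a random block left 7366 genes and 1 member, and 4 members passed in WT samples and also among genes above the median gene, which left out Chac1. Leaving out 1 array gave 3300 to 4618 genes and 2 to 4 members for microglia, 5515 to 7526 and 2 to 5 for astrocytes, 4394 to 5944 and 2 to 5 for their contrast, and 4 to 7 members between cell types. Directions that turned were those of values that had not passed, apart from Atf4 between cell types (-0.43 as the mean of its probes): Hsp90b1 (-0.11) and Asns (0.18) in microglia of slide 2, Atf4 in astrocytes as the mean of its probes (0.051), Hsp90b1 in astrocytes after quantile normalization (0.019), and Sesn2 between cell types in WT samples (0.13). With 1 array left out, Xbp1 ranged from -0.17 to 0.022 and Hsp90b1 from -0.17 to 0.077 in astrocytes, and their differences of effects from -0.017 to 0.18 and from -0.23 to 0.0062. The causes were not tested. Trib3 kept its direction and call in the genotype comparisons and their difference under every alternative run.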
